A study of Homo sapiens with 4 samples.

Results

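CpG-rich promoter regions were defined as autosomal regions of 1 kb that overlapped the 2 kb either side of a transcription start site (TSS) of a protein-coding gene and held at least 41 CG dinucleotides (CpGs). They were taken from the regions listed as differentially methylated in 3 deposited tables, each a comparison of SKOV3 ovarian cancer cell clones with modulated LY75. The knockdown comparison set shC-S against sh-LY75-S, the knockout comparison set LY75-R-S against LY75-KO-S, and the mix set shC-S and LY75-R-S against sh-LY75-S and LY75-KO-S. The knockdown table held 3391 CpG-rich promoter regions, 6.62% of its 51243 regions. The knockout table held 541, 1.91% of its 28282 regions, and the mix of all 4 libraries held 1489, 7.10% of 20986. Together the tables listed 3815 different CpG-rich promoter regions among 72455 different regions (5.27%). As background, the same shares were counted over the regions that the assay could reach in principle, those with at least 1 CpG near the end of an MspI fragment of 40 to 220 bp. Of the 22471 reachable CpG-rich promoter regions, the knockdown comparison listed 15.0%, against 12.5% of all 355586 reachable autosomal regions. The knockout comparison listed 2.35% of them, against 6.60% of all, and the mix 6.59%, against 5.20% of all.

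Methylation was measured by reduced representation bisulfite sequencing (RRBS) in 4 libraries, 1 for each clone of SKOV3, an established human ovarian cancer line with mesenchymal features, after changes to the receptor LY75. Of the clones with mesenchymal (M) phenotype, shC-S had received a control shRNA. The other M clone, LY75-R-S (labelled Ly75-OV-S at deposit), was made from LY75 knockdown cells by adding back a LY75 cDNA that resists the shRNA. Of the clones with epithelial (E) phenotype, sh-LY75-S had LY75 suppressed by shRNA and LY75-KO-S had it inactivated by CRISPR. The knockdown and knockout comparisons are together called the single comparisons. The single comparisons share no library, although LY75-R-S was derived from knockdown cells like sh-LY75-S. As each clone had 1 library, no clone had a replicate, and a listed region describes a difference between libraries, not between conditions. The grouping of the mix was taken from the study, since the name of its table, Sh vs. Ly75, does not give it.

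A region was listed when the authors' comparison passed their thresholds, given with the tables as 25 percentage points and a q-value of 0.01. Here a region was counted as listed by its position alone. The size and the sign of the difference were not used, so no region is described as gaining or losing methylation. The tables carry no read numbers, so the depth is unknown, and a region that is not listed may have been unchanged, below the thresholds or without enough reads. Intervals in brackets are 95% Wilson intervals and cover counting error only, because neighbouring regions are not independent and nothing was tested between conditions.

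In vertebrate genomes most CpGs are methylated and CpGs are rare, since methylated cytosine tends to mutate to thymine. CpG islands, short stretches dense in CpGs, lie at the promoters of most housekeeping genes and of many developmental regulators and are usually free of methylation, and dense methylation of such a promoter goes with a silent gene. Cancer cells often carry methylation at CpG islands that normal cells lack, and RRBS, which starts from MspI cuts at CCGG, samples such islands well.

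To show what the assay reads in these regions, MspI fragments of 6 listed regions are printed from the plus strand of GRCh37 (hg19), 5′ to 3′, with each CpG in capitals. In each region the fragment with the most readable CpGs was taken among those without untranslated exon sequence, and the region was the listed one nearest a TSS, or nearest among those in both single comparisons where there were any. The genes stand for the patterns described here. LY75 is the gene modulated in the clones, HOOK1 was selected in the study, NKX1-1 had a long run of listed regions, KLF11 was listed in the knockout comparison, and CYP1B1 and BARHL2 were listed in both.
LY75: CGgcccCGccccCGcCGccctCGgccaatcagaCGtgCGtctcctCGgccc
HOOK1: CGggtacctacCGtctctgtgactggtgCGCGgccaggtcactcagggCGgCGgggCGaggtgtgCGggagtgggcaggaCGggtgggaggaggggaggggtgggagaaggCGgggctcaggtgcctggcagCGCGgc
NKX1-1: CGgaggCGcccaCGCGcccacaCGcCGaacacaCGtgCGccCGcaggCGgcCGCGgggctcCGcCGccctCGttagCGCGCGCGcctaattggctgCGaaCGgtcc
KLF11: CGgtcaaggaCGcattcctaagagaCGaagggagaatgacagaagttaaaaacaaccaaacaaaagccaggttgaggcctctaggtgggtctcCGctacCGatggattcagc
CYP1B1: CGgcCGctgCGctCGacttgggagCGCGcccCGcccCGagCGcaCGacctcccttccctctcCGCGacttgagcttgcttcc
BARHL2: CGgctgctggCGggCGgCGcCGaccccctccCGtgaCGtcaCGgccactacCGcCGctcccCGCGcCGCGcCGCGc
The LY75 fragment (chr2:160761307-160761357) held 8 CpGs in 51 bp and was centred 65 bp upstream of the TSS. The fragment of HOOK1 (chr1:60280423-60280560, 12 CpGs in 138 bp) was centred 130 bp upstream, and reads of 50 bases from either end reached 8 of its CpGs. That of NKX1-1 (chr4:1400436-1400541) had 21 in 106 bp, 258 bp upstream. The KLF11 fragment (chr2:10183115-10183226) was the poorest shown, with 5 CpGs in 112 bp at 507 bp upstream, although its region held 130 CpGs. CYP1B1 (chr2:38303576-38303657) had 12 CpGs in 82 bp at 281 bp upstream, and BARHL2 (chr1:91183502-91183577) 16 in 76 bp at 680 bp upstream. All of these fragments lay outside the exons of basic protein-coding transcripts.

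The gene modulated in the clones had CpG-rich promoter regions of its own. LY75 encodes the endocytic receptor DEC-205 and lies on the minus strand of chromosome 2. Its region chr2:160761001-160762000 held the TSS, coding sequence and 62 CpGs, and the intronic region chr2:160760001-160761000, centred 766 bp downstream, held 41 CpGs. Both were listed in the knockdown comparison and in the mix, and neither in the knockout comparison.

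Taken as a ratio, the shares listed in the single comparisons lay further apart at CpG-rich promoters than in the other classes of region, and taken as a difference in points they lay further apart in CpG-dense regions away from promoters. In the knockdown comparison, 3370 of 22471 reachable CpG-rich promoter regions were listed (15.0%, 14.5 to 15.5%), which is 1.20 times the share of all reachable regions. With 529 regions, the knockout comparison listed 2.35% (2.16 to 2.56%), below the share of all reachable regions. The mix listed 1480 (6.59%, 6.27 to 6.92%), 1.27 times that of all. Promoter regions with at most 40 CpGs were listed at 14.5% (14.1 to 14.9%), 7.30% (7.00 to 7.62%) and 6.01% (5.74 to 6.30%) in the same order, which is 1.16, 1.11 and 1.16 times the share of all reachable regions. Regions away from promoters that also held at least 41 CpGs were listed more often than CpG-rich promoters in each table, at 19.5% (18.9 to 20.1%), 5.28% (4.98 to 5.61%) and 8.0% (7.62 to 8.39%). They are not equally dense, as 13276 of 19136 of them had 41 to 60 CpGs, against 8616 of 22471 CpG-rich promoter regions. Within this bin, 18.7% (18.0 to 19.4%) were listed away from promoters and 17.2% (16.4 to 18.0%) at promoters in the knockdown comparison. The same shares were 5.86% (5.47 to 6.27%) and 3.55% (3.18 to 3.96%) in the knockout comparison. In the mix they were 7.65% (7.21 to 8.12%) and 7.50% (6.96 to 8.07%), where the intervals overlapped. Denser bins lay further apart in the knockdown comparison and the mix. At 81 to 100 CpGs the knockdown shares were 22.7% and 13.8%. Those of the mix were 11.1% (9.48 to 12.9%) and 6.41% (5.69 to 7.21%). From 61 to 120 CpGs the intervals did not overlap in any table. Above 120 CpGs they overlapped in the knockout comparison and the mix. In the knockout comparison the share relative to all reachable regions was thus 0.357 at CpG-rich promoters, 1.11 at CpG-poor promoters and 0.801 at dense regions elsewhere. Of the listed autosomal regions, 91.1%, 87.6% and 92.1% were reachable in the order knockdown, knockout and mix. The same shares of the listed CpG-rich promoter regions were 99.4%, 97.8% and 99.4%. Some listed regions thus lay outside the reachable set. The ratios to all reachable regions depend on which regions are counted as reachable. With fragments up to 300 bp they were 1.30, 0.387 and 1.39 at CpG-rich promoters in the order knockdown, knockout and mix. Without any requirement of reachability they were 8.61, 2.51 and 9.22, since all autosomal regions were then listed at 1.70%, 0.929% and 0.697%. In the knockout comparison CpG-poor promoters were then listed at 2.28% (2.19 to 2.38%), 2.46 times the share of all, next to 2.33% (2.15 to 2.54%) of CpG-rich promoters, and dense regions elsewhere at 4.84% (4.56 to 5.14%), 5.21 times. That CpG-rich promoters fell below all regions and below CpG-poor promoters in the knockout comparison thus holds among reachable regions and not over the whole of the autosomes. These settings of the ratio were chosen after seeing the data. Whether coverage of CpG-rich promoters differed between the libraries was not tested, as no read numbers are given.

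**Figure D1:**
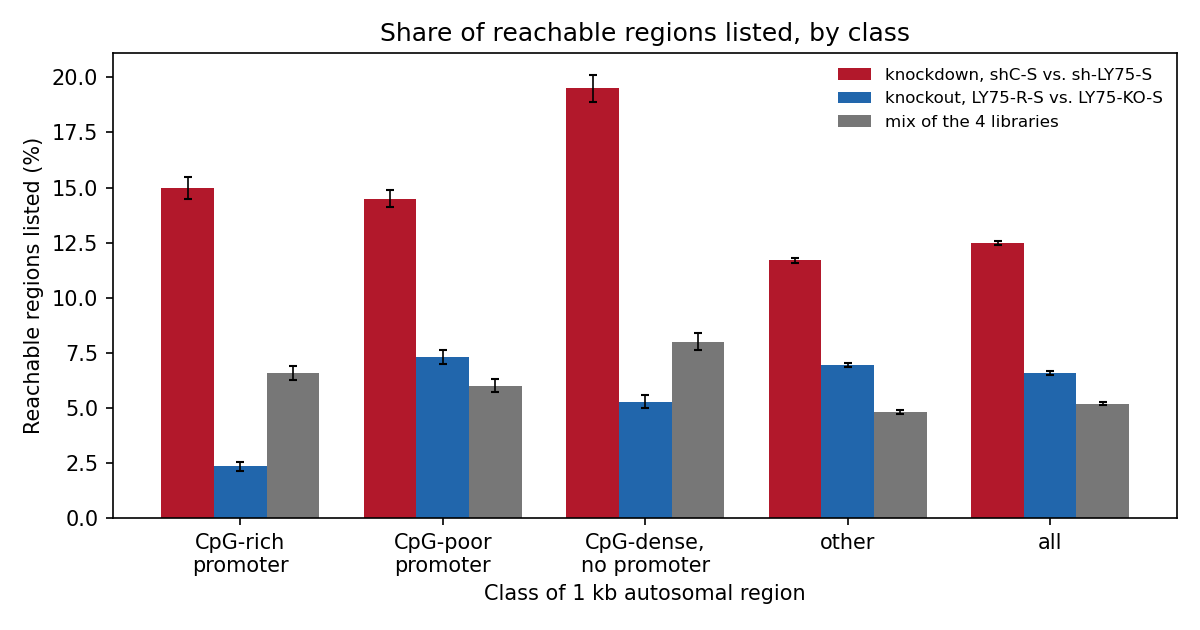
Percent of reachable 1 kb autosomal regions that were listed, by class of region, for each table, with bars for the share and whiskers for the 95% Wilson interval. CpG-rich promoters stand at 15.0%, 2.35% and 6.59%, and the bar of the knockout comparison is the lowest of all bars shown.

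Among promoters, listing depended on the number of CpGs. From 41 to 60 CpGs, 17.2% (16.4 to 18.0%) of the reachable regions were listed in the knockdown comparison, and the share fell to 15.3% at 61 to 80, 13.8% at 81 to 100, 11.6% at 101 to 120 and 8.86% (7.45 to 10.5%) above 120. As a ratio the fall was steeper in the knockout comparison, although smaller in points, from 3.55% (3.18 to 3.96%) through 2.17%, 1.5% and 0.916% to 0.530% (0.257 to 1.09%). In the mix the share went from 7.50% (6.96 to 8.07%) to 4.02% (3.08 to 5.21%). Below 41 CpGs the tables differed in their course. With 0 to 20 and 21 to 40 CpGs, the knockout comparison listed 7.96% and 6.85% of promoter regions, more than in any CpG-rich bin, whereas the knockdown comparison listed 13.2% and 15.4%, less than from 41 to 60. Just outside the limit of 41, with 36 to 40 CpGs, 17.1%, 6.14% and 6.61% were listed in the order knockdown, knockout and mix, and just inside, with 41 to 45, 18.1%, 4.07% and 7.56%.

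**Figure D2:**
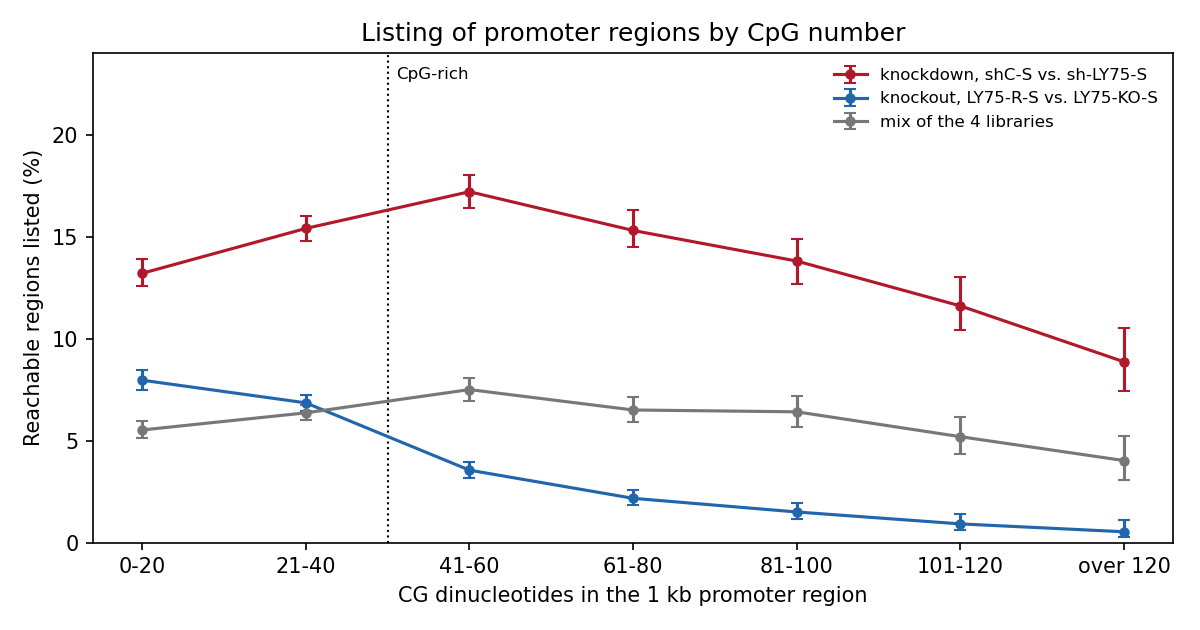
Percent of reachable promoter regions listed against the number of CpGs in the region, with 95% Wilson intervals, where the dotted line marks the limit of 41 CpGs. Past this line the shares of all tables fall with the number of CpGs, from 17.2% to 8.86% in the knockdown comparison.

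The CpGs that reads can reach rose with the CpGs of a region, from a median of 18 in regions of 41 to 60 CpGs to 82 above 120. Grouped by readable CpGs, the knockout comparison listed 3.82% (3.13 to 4.65%) of regions with at most 10 and 0.631% (0.409 to 0.973%) of those above 60. In the knockdown comparison the shares were 13.4% (12.1 to 14.8%) and 11.8% (10.7 to 13.0%), with a maximum of 16.8% (16.0 to 17.6%) at 21 to 40 readable CpGs. Away from promoters the course was not the same. There, the knockdown comparison listed 22.7% (20.5 to 25.1%) of regions with 81 to 100 CpGs, against 18.7% (18.0 to 19.4%) with 41 to 60. Its share was then lower, 19.6% at 101 to 120 CpGs and 16.3% above 120. The intervals of both bins overlapped those of 41 to 60 and of 81 to 100 CpGs, so the course above 100 CpGs is not settled. The knockout comparison listed 2.95% (2.17 to 4.01%) of regions with 81 to 100 CpGs, against 5.86% (5.47 to 6.27%) with 41 to 60. At 101 to 120 CpGs the knockout comparison listed 3.87% (2.40 to 6.2%) away from promoters, and above 120 CpGs 1.42% (0.390 to 5.02%). The knockout intervals of these bins overlapped each other and that of 81 to 100 CpGs, so they do not show whether the fall in this comparison was steady.

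Listing was lowest around the TSS. Regions that held a TSS were listed at 12.3% (11.8 to 12.9%) in the knockdown comparison, regions upstream at 19.4% (18.0 to 20.9%) and regions downstream at 19.5% (18.4 to 20.5%). For the knockout comparison these shares were 1.72% (1.52 to 1.95%), 3.71% (3.08 to 4.47%) and 3.26% (2.82 to 3.76%), and for the mix 5.56% (5.20 to 5.95%), 7.43% (6.52 to 8.45%) and 8.76% (8.04 to 9.53%). Both sides of the TSS exceeded the TSS regions in all tables, with intervals that did not overlap. As TSS regions also hold more CpGs, the comparison was repeated within bins of CpG number. At 61 to 80 CpGs, 12.5% (11.6 to 13.6%) of TSS regions, 20.6% (17.8 to 23.7%) of upstream regions and 20.6% (18.6 to 22.7%) of downstream regions were listed in the knockdown comparison. Above 100 CpGs they were listed at 8.78% (7.81 to 9.86%), 19.1% (13.4 to 26.5%) and 18.6% (15.5 to 22.2%). In the upstream and downstream regions of this comparison, the share therefore did not fall with CpG number as it did in TSS regions. In the knockout comparison, 1.68% (1.32 to 2.12%) of TSS regions with 61 to 80 CpGs were listed, 3.67% (2.51 to 5.32%) of upstream and 2.79% (2.07 to 3.77%) of downstream regions, whose interval overlapped that of TSS regions. Above 80 CpGs the upstream and downstream counts of this table were at most 16 regions, and the order was not the same in the bins. At 81 to 100 CpGs, 1.41% (1.05 to 1.90%) of TSS regions, 0.435% (0.0768 to 2.42%) of upstream and 2.17% (1.34 to 3.49%) of downstream regions were listed, and above 100 CpGs 0.814% (0.547 to 1.21%), 2.21% (0.753 to 6.28%) and 0.190% (0.0336 to 1.07%). In both of these bins the intervals of upstream and downstream regions overlapped those of TSS regions. In the mix, the intervals of upstream and TSS regions overlapped in every bin, as from 41 to 60 CpGs with 7.14% (6.03 to 8.43%) and 6.83% (6.09 to 7.65%). Downstream regions of the mix stood above TSS regions up to 100 CpGs, as from 61 to 80 with 9.13% (7.76 to 10.7%) against 5.32% (4.67 to 6.06%), and above 100 CpGs their intervals overlapped.

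**Figure D3:**
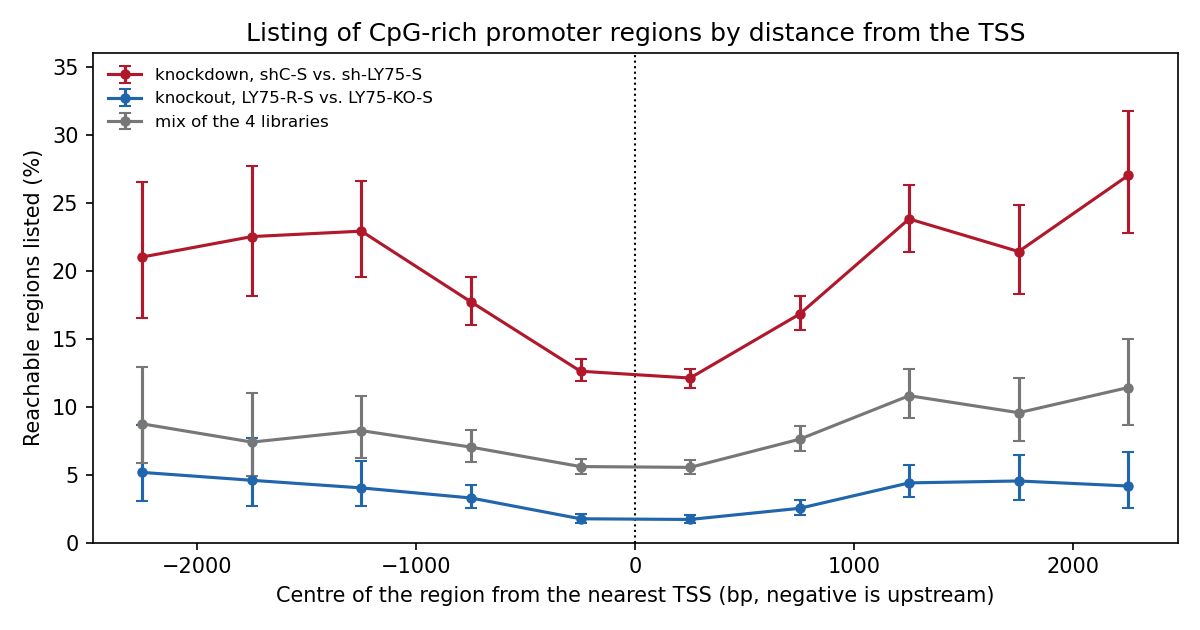
Percent of reachable CpG-rich promoter regions listed against the distance of the region's centre from the nearest TSS, in bins of 500 bp, with 95% Wilson intervals. In the knockdown comparison the share is 12.6% and 12.1% in the bins on either side of the TSS and 23.8% at 1000 to 1500 bp downstream.

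Regions near TSSs of genes on opposite strands were listed less often than the rest. The window was the same 2 kb, and neither the arrangement of the genes nor the distance between their TSSs was considered. Regions within reach of TSSs of genes on opposite strands were listed at 7.58% (6.56 to 8.75%) in the knockdown comparison, against 15.8% (15.3 to 16.3%) of regions without such a pair. The same shares were 1.34% (0.939 to 1.90%) and 2.47% (2.26 to 2.69%) in the knockout comparison and 2.85% (2.24 to 3.63%) and 7.00% (6.66 to 7.36%) in the mix. Among regions that held a TSS, the pairs were listed at 5.59% (4.62 to 6.76%) and the rest at 13.3% (12.7 to 13.9%) in the knockdown comparison, at 1.07% (0.688 to 1.67%) and 1.82% (1.60 to 2.07%) in the knockout comparison and at 2.15% (1.57 to 2.93%) and 6.05% (5.65 to 6.49%) in the mix. For these TSS regions the intervals overlapped in the knockout comparison. Over all reachable CpG-rich promoter regions, those with an untranslated exon but no coding sequence were listed at 12.6% (11.9 to 13.5%) in the knockdown comparison, those with coding sequence at 14.7% (14.0 to 15.3%), intronic ones at 19.2% (17.7 to 20.7%) and those outside genes at 19.9% (18.1 to 21.9%). In the knockout comparison the order was the same, with 1.61% (1.33 to 1.94%), 2.31% (2.05 to 2.60%), 3.59% (2.94 to 4.38%) and 3.67% (2.88 to 4.67%). In the mix the shares were 5.84% (5.30 to 6.44%), 6.52% (6.09 to 6.98%), 8.19% (7.19 to 9.32%) and 7.45% (6.31 to 8.79%), with intronic regions above those outside genes. The intervals of intronic regions and of regions outside genes overlapped in all tables.

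The listed regions had fewer CpGs at the median than the regions that could have been listed. The median number of CpGs was 64 in the knockdown comparison, 56 in the knockout comparison and 65 in the mix, against 68 over all reachable CpG-rich promoter regions. The median GC content was 63.3%, 61.3% and 63.5%, against 62.7%. A TSS lay in 51.6% (49.9 to 53.3%), 45.5% (41.3 to 49.7%) and 53.1% (50.5 to 55.6%) of the listed regions, against 62.7% (62.1 to 63.3%) of all reachable ones. Of the promoter motifs searched on both strands, the GC box (GGGCGG) was found in 90.5%, 86.0% and 90.4% of the listed regions and in 91.4% of all. The CCAAT box (CCAAT) was found in 53.6%, 60.4% and 53.5%, against 56.1%, and the TATA box (TATAAA) in 16.1%, 16.6% and 16.6%, against 17.0%. These are matches of letters in a window of 1 kb and not sites.

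The single comparisons had 217 CpG-rich promoter regions in common, which is 6.40% (5.62 to 7.27%) of those of the knockdown comparison and 40.1% (36.1 to 44.3%) of those of the knockout comparison. A further 3174 regions were listed in the knockdown comparison and 324 in the knockout comparison without the other. For all autosomal regions, the common ones made up 16.0% (15.7 to 16.3%) and 29.2% (28.7 to 29.8%), and for CpG-poor promoters 16.6% (15.5 to 17.8%) and 32.1% (30.2 to 34.1%). For CpG-dense regions away from promoters they made up 8.21% (7.37 to 9.12%) and 30.2% (27.4 to 33.0%). The share of the knockdown list that can be common is capped by the length of the knockout list. That list was short in both CpG-rich classes, with 541 regions against 3391 at promoters and 1028 against 3778 elsewhere. The low shares of the knockdown list there are therefore not a measure of poorer agreement. As a share of the knockout list, the common regions were highest at CpG-rich promoters among these classes. At CpG-rich promoters the knockdown list was 6.27 times as long as the knockout list, in dense regions away from promoters 3.68 times and over all autosomal regions 1.83 times. Since the signs were not used, a common region may differ in the same or in opposite directions. The mix holds the same libraries and is given side by side only.

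Among the common regions, the ones with the most CpGs belonged to BARHL2, PXDC1, INHA with OBSL1, FBLL1 and SLC16A3. BARHL2, a homeobox factor of neural development, had its region chr1:91183001-91184000 with 135 CpGs outside genes and upstream of the TSS. The PXDC1 region (chr6:3751001-3752000, 134 CpGs) and the FBLL1 region (chr5:167956001-167957000, 126 CpGs) held the TSS and coding sequence. The region chr2:220435001-220436000, with 133 CpGs, was shared by OBSL1, a cytoskeletal linker, and INHA, the alpha subunit of inhibin, whose TSSs face apart. SLC16A3, a lactate exporter, had 117 CpGs in chr17:80186001-80187000, over a TSS and an untranslated exon. Of these regions, that of FBLL1 was also listed in the mix and the others were not.

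The genes with the most common regions were TBX1, CYP1B1, SLC16A3, TCF24, INHA, KCND3, OBSL1 and SLC6A11, each with 2, followed by SALL3 and OTX2 with 1 each and more regions in any table. TBX1, a T-box factor of pharyngeal and heart development, had 7 reachable regions. Of them 5 were listed in the knockdown comparison, 2 in the knockout comparison and 3 in the mix, and the region with the most CpGs, chr22:19748001-19749000 with 157 CpGs over a TSS, was listed in none. CYP1B1, a cytochrome P450 that metabolises estrogens and xenobiotics, had 3, 2 and 2 of its 4 regions listed in the same order, including the one over the TSS (chr2:38303001-38304000, 84 CpGs) in all tables. The regions of INHA and OBSL1 are the same 2, so these genes do not count separately. KCND3, a potassium channel gene, and SLC6A11, a GABA transporter gene, had the same 2 regions listed in both single comparisons and none in the mix. SALL3, a zinc finger developmental factor, had 6 of 7 regions listed in the knockdown comparison, 1 in the knockout comparison and 3 in the mix.

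At the level of genes, 14376 protein-coding genes had a CpG-rich promoter region and 14159 of them a reachable one. A reachable region that was listed was found for 2841 genes in the knockdown comparison (20.1%, 19.4 to 20.7% of the genes with a reachable region), for 552 in the knockout comparison (3.90%, 3.59 to 4.23%) and for 1386 in the mix (9.79%, 9.31 to 10.3%). More than 1 was found for 634, 22 and 186 genes, with up to 8, 2 and 4 regions. Of the 2420 genes with at least 3 reachable regions, 28 had every one of them listed in the knockdown comparison, 0 in the knockout comparison and 2 in the mix.

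Some listed regions adjoined each other, most of all by count in the knockdown comparison. There 957 of 3391 regions (28.2%) lay in 450 runs of adjacent listed regions, against 32 of 541 (5.91%) in the knockout comparison and 253 of 1489 (17.0%) in the mix. A longer list gives more neighbours by its length alone, so these shares are not comparable between tables. The share expected at each length was not computed. The longest runs had 5 regions. One covered chr4:1398001-1403000 at NKX1-1, a homeobox gene, with 436 CpGs in all, and the other chr1:63786001-63791000 at FOXD3, a neural crest factor, with 394. A run of 4 covered chr16:68269001-68273000 at ESRP2, a splicing regulator of epithelial cells. In the knockout comparison no run was longer than 2, and those with the most CpGs lay at GREM1, a BMP antagonist (192 CpGs), at SLC16A3 (184) and at KLF11, a Krüppel-like factor (181). The regions of the KLF11 and GREM1 runs were listed in the knockout comparison and in no other table. In the mix, runs of 3 lay at the potassium channel gene KCNK9, at the homeobox gene IRX5 and at NKX1-1.

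**Figure D4:**
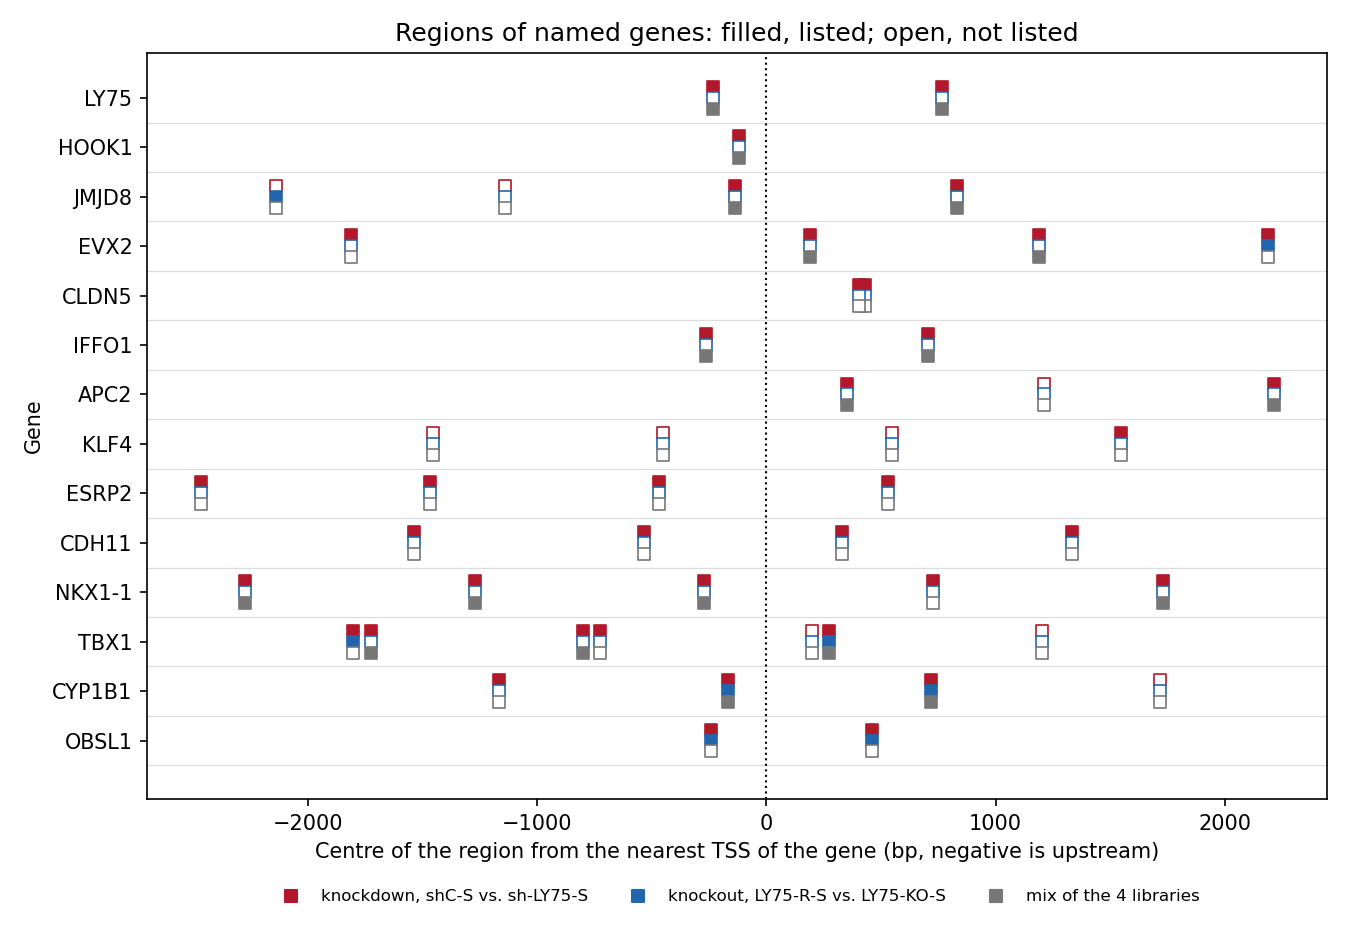
CpG-rich promoter regions of 14 genes, placed by the distance of the region's centre from the nearest TSS of the gene in bp, with 1 square for each table, filled where the region was listed. All regions of ESRP2, CDH11 and NKX1-1 are filled for the knockdown comparison and open for the knockout comparison.

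The 10 genes selected in the study were chosen on these libraries, so their listing is not independent evidence. Of their 28 reachable regions, 18 were listed in the knockdown comparison (64.3%, 45.8 to 79.3%), 2 in the knockout comparison (7.14%, 1.98 to 22.6%) and 10 in the mix (35.7%, 20.7 to 54.2%), beside 15.0%, 2.35% and 6.59% of all reachable CpG-rich promoter regions. The interval of the knockout comparison held its background. Every gene had a listed region in the knockdown comparison, 2 had one in the knockout comparison and 6 in the mix. Of all genes with a reachable region, 20.1%, 3.90% and 9.79% had a listed one in the same order. HOOK1, which links cargo to microtubules, and RAMP2, a partner of adrenomedullin receptors, had a single region each, over the TSS, listed in the knockdown comparison and in the mix. The homeobox gene EVX2 had all 4 regions listed in the knockdown comparison, and 1 of them, chr2:176946001-176947000 in coding sequence 2189 bp downstream of the TSS, also in the knockout comparison. JMJD8 had 2 listed regions at and after its TSS in the knockdown comparison and in the mix, and another, chr16:736001-737000 at 2138 bp upstream, in the knockout comparison. CLDN5, a tight junction gene, CEND1, linked to neuronal cell cycle exit, and IFFO1, an intermediate filament family gene, had 2 of 2 regions listed in the knockdown comparison. KLF4, a factor of epithelial differentiation, had 1 of 4 listed, in coding sequence 1546 bp downstream, while its TSS region with 100 CpGs was not listed in any table. WNT3 had 1 of 5, and APC2, a homologue of the tumour suppressor APC, 2 of 3.

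Genes of the epithelial state were listed often in the knockdown comparison. Of 45 reachable regions of epithelial genes, 20 were listed in the knockdown comparison (44.4%, 30.9 to 58.8%), 0 in the knockout comparison (0 to 7.87%) and 9 in the mix (20%, 10.9 to 33.8%). The 20 regions belonged to 12 of 21 genes with a reachable region, beside 20.1% of all genes with one. Over all reachable CpG-rich promoter regions the shares of regions listed were 15.0%, 2.35% and 6.59%. The intervals of epithelial genes lay above this background in the knockdown comparison and the mix and held it in the knockout comparison, and the difference between the tables was not tested. ESRP1 and ESRP2, which set epithelial splicing, had 4 of 4 regions listed each in the knockdown comparison, and OVOL1, a repressor of mesenchymal programmes, 3 of 4. CDH1, which encodes E-cadherin, had the region over its TSS listed (chr16:68771001-68772000, 82 CpGs) in the knockdown comparison and in the mix. Mesenchymal genes had 7 of 21 regions listed in the knockdown comparison (33.3%, 17.2 to 54.6%), 1 in the knockout comparison (4.76%, 0.846 to 22.7%) and 1 in the mix. These 7 came from 3 genes, CDH11 with 4 of 4 regions, CDH2, which encodes N-cadherin, with 2 of 4 and the collagen gene COL1A1 with 1 of 2. The COL1A1 region, chr17:48277001-48278000, was listed in both single comparisons. The interval of mesenchymal genes lay above the background in the knockdown comparison and held it in the other tables. Transcription factors of the epithelial-mesenchymal transition had 12 of 38 regions listed (31.6%, 19.1 to 47.5%), 4 (10.5%, 4.17 to 24.1%) and 7 (18.4%, 9.22 to 33.4%) in the same order, with the lower limits above the background of each table. FOXC2 had 3 of 4 regions listed in the knockdown comparison, GSC 3 of 4 with 1 also in the knockout comparison, and FOXC1 2 of 5 with 1 also in the knockout comparison. SNAI1, which encodes SNAIL, had its only region listed in the knockdown comparison.

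In the Wnt pathway, secreted ligands bind Frizzled receptors and antagonists hold them off. The counts of its genes are read against the shares of all reachable CpG-rich promoter regions, 15.0%, 2.35% and 6.59% in the order knockdown, knockout and mix. Ligand genes had 10 of 51 regions listed in the knockdown comparison (19.6%, 11 to 32.5%), 2 in the knockout comparison (3.92%, 1.08 to 13.2%) and 5 in the mix (9.80%, 4.26 to 21%). WNT1 had 3 listed regions in the knockdown comparison and WNT7B 2. Another region of WNT7B, chr22:46371001-46372000 over a TSS, was listed in all tables but had 0 readable CpGs, so it is not among the 51. Receptor genes had 3 of 38 listed (7.89%, 2.72 to 20.8%), from FZD10 and FZD5, and 0 in the other tables (0 to 9.18%). Antagonist genes had 10 of 28 listed in the knockdown comparison (35.7%, 20.7 to 54.2%), 0 in the knockout comparison (0 to 12.1%) and 3 in the mix (10.7%, 3.71 to 27.2%). Among them, the secreted inhibitor SFRP2 and the DKK receptor KREMEN2 had 2 listed regions each, and the secreted inhibitors DKK1 and DKK2 had 1 each. Another region of DKK2, chr4:107956001-107957000, was listed in the knockdown comparison but had 0 readable CpGs, so it is not among the 28. Intracellular components had 4 of 41 listed (9.76%, 3.86 to 22.5%), 0 (0 to 8.57%) and 3 (7.32%, 2.52 to 19.4%), from APC2, DVL1 and TCF7. The interval of antagonists lay above the background in the knockdown comparison, while the other intervals of these Wnt groups held the background of their table. Genes of TGF-β and BMP signalling had 24 of 98 regions listed (24.5%, 17.0 to 33.9%), 6 (6.12%, 2.84 to 12.7%) and 9 (9.18%, 4.91 to 16.5%). Their intervals lay above the background in the single comparisons and held it in the mix. The 6 regions in the knockout comparison came from only 4 genes, with 2 adjacent regions of GREM1 and 2 adjacent regions of INHA. As neighbours are not independent, the knockout interval is too narrow to place these genes above the background. BMP4 had 3 of 4 regions listed in the knockdown comparison. Of them, 2 held a TSS, of which chr14:54423001-54424000 was listed in all tables and chr14:54421001-54422000 in the knockdown comparison alone. The ligand BMP2 had 2 of 3 listed in the knockdown comparison and GDF10 2 of 2.

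Developmental regulators, many of which have long CpG islands, were listed often as well. HOX genes had 37 of 101 reachable regions listed in the knockdown comparison (36.6%, 27.9 to 46.4%), 8 in the knockout comparison (7.92%, 4.07 to 14.9%) and 17 in the mix (16.8%, 10.8 to 25.3%). HOXD3 had 4 of 6 regions listed in the knockdown comparison, HOXD11 3 of 3, and HOXC4 and HOXC9 3 of 4 each. Other homeobox genes had 151 of 388 listed (38.9%, 34.2 to 43.9%), 18 (4.64%, 2.95 to 7.21%) and 60 (15.5%, 12.2 to 19.4%) in the same order. Of their 107 genes, 80 had a listed region in the knockdown comparison, against 20.1% of all genes with a reachable region. These 107 genes held 388 reachable regions, and a gene with more regions has more chances of a listed one. NKX1-1 had 5 of 5 regions listed, OTX2, a factor of forebrain development, 5 of 6, PAX6, a factor of eye development, 4 of 10 and EN1 3 of 5. The SOX, T-box, GATA and ZIC families had 55 of 124 listed (44.4%, 35.9 to 53.1%), 7 (5.65%, 2.76 to 11.2%) and 21 (16.9%, 11.4 to 24.5%). GATA2, a blood stem cell factor, had 5 of 8 listed in the knockdown comparison, GATA4 3 of 4 and GATA3 2 of 5. For these families the lower limit of each interval was above the background of its table. This background was 15.0% in the knockdown comparison, 2.35% in the knockout comparison and 6.59% in the mix. It was not matched for position relative to the TSS. Regions without a TSS were listed in the knockout comparison at 3.71% upstream and 3.26% downstream. The lower limits there of 2.95% for other homeobox genes and 2.76% for the SOX, T-box, GATA and ZIC families do not clear these shares.

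Housekeeping genes were listed less often than the background of 15.0% in the knockdown comparison. Ribosomal protein genes had 5 of 108 regions listed in the knockdown comparison (4.63%, 1.99 to 10.4%), 0 in the knockout comparison (0 to 3.43%) and 1 in the mix (0.926%, 0.164 to 5.06%). Proteasome genes had 2 of 50 (4.0%, 1.10 to 13.5%), 0 (0 to 7.13%) and 1 (2.0%, 0.354 to 10.5%). In the knockout comparison the intervals of both groups held the background of 2.35%. In the mix, with a background of 6.59%, the interval of ribosomal protein genes lay below it and that of proteasome genes held it. The listed regions of RPL28, RPL36, RPS13, PSMB10 and PSMB3 did not hold the TSS of these genes, with centres 1174 to 2493 bp away from the nearest one. Zinc finger genes (ZNF) of chromosome 19 had 57 of 267 regions listed (21.3%, 16.9 to 26.7%), 8 (3.0%, 1.53 to 5.80%) and 33 (12.4%, 8.94 to 16.8%). Their intervals lay above the background in the knockdown comparison and the mix and held it in the knockout comparison. ZNF331 had 2 of 3 reachable regions listed in the knockdown comparison, each over a TSS, and ZNF253, ZNF347 and ZNF43 had 2 of 2. Clustered protocadherins, cell surface proteins whose promoters are chosen stochastically in neurons, had 6 of 63 (9.52%, 4.44 to 19.3%), 1 (1.59%, 0.281 to 8.46%) and 4 (6.35%, 2.50 to 15.2%), with intervals that held the background of each table. PCDHA1, PCDHB1 and PCDHB12 were listed in the knockdown comparison, and 1 region of PCDHA12 in the knockout comparison.

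Genes known for promoter methylation in tumours had 9 of 42 regions listed in the knockdown comparison (21.4%, 11.7 to 35.9%), 0 in the knockout comparison (0 to 8.38%) and 4 in the mix (9.52%, 3.77 to 22.1%). CDH13, which encodes T-cadherin, had 2 of 2 regions listed in the knockdown comparison. HIC1, a transcriptional repressor, had 1 of 5 and PYCARD, an inflammasome adaptor, 1 of 2. Germline genes, many of which are silenced by promoter methylation in somatic cells, had 7 of 28 (25%, 12.7 to 43.4%), 0 (0 to 12.1%) and 1 (3.57%, 0.633 to 17.7%). BOLL had 2 of 2 regions listed in the knockdown comparison, and STK31 and SYCP1 had their single region listed there, over the TSS, as was 1 of 4 regions of SYCE1. The intervals of both groups held the background of their table, 15.0%, 2.35% and 6.59% in the order knockdown, knockout and mix.

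**Figure D5:**
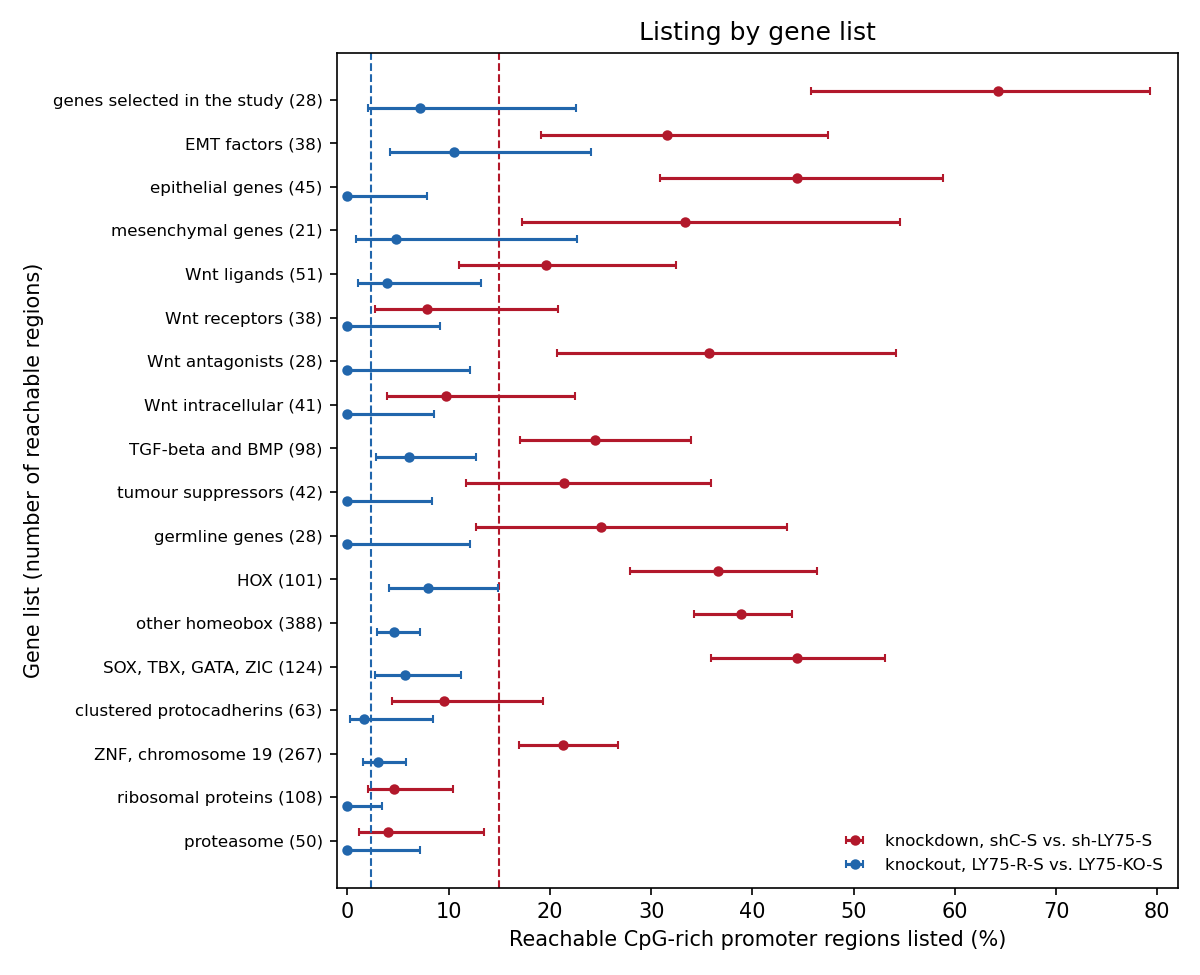
Percent of reachable CpG-rich promoter regions listed in the single comparisons for 18 gene lists, with the number of regions in brackets, points for the share and whiskers for the 95% Wilson interval. Dashed lines mark the background over all reachable CpG-rich promoter regions, 15.0% for the knockdown comparison and 2.35% for the knockout comparison.

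Listed regions were found on all 22 autosomes. The share ran from 11.6% (8.97 to 15.0%) on chromosome 13 to 18.5% (15.7 to 21.5%) on chromosome 20 in the knockdown comparison, and from 0.913% (0.356 to 2.32%) on chromosome 13 to 3.50% (2.59 to 4.71%) on chromosome 16 in the knockout comparison. In the mix it ran from 4.45% (3.38 to 5.84%) on chromosome 6 to 8.79% (6.39 to 12.0%) on chromosome 18.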

How the data were processed

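RRBS was measured in 4 libraries of SKOV3 clones, grouped by their labels, 1 per clone. Per the submitters' processing notes and the study's methods, reads were checked with FastQC, trimmed with Trim Galore 0.4.1, aligned to hg19 with Bismark 0.16.1 and compared with methylKit in windows of 1000 bp. The authors deposited 3 tables that hold, per window, its position and their own comparison, a difference in percent methylation with a p-value and a q-value. These comparison columns were not used. Of the deposited tables, other values than the positions (chromosome, start and end) entered no count. The names of the tables give a q-value of 0.01 as the threshold, whereas the methods give 0.05. The minimum coverage is not given in the sources used here, and depth per library is unknown.

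Windows were joined to GRCh37, the build also named hg19, and to GENCODE release 44 lifted to it, with 53832 TSSs of basic transcripts of 19222 protein-coding genes. CpGs, motifs and MspI fragments were counted from the reference. A region was taken as reachable with at least 1 CpG in the first or last 50 bases of a fragment of 40 to 220 bp, since the windows that the authors tested are not known and their size selection was not used here. The counting was checked on simulated sequences. No test between conditions was made. Shares were given with 95% Wilson intervals, and the gene lists numbered 18.

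The members and the gene lists were chosen with earlier results of these data known. Genes were named by rule: the 10 genes selected in the study and LY75, the 10 genes with the most regions in both single comparisons, the genes of the 3 longest runs per table, the 5 regions with the most CpGs in both single comparisons, and up to 4 genes per list with the most listed regions. Some items that fall under these rules are not reported here. Alternatives were a window of 1 kb, at least 61 CpGs, the 5′ ends of genes alone, fragments up to 300 bp and no requirement of reachability. Scripts ran under Python 3.11.15 with pandas 2.3.3 and numpy 2.4.6, and figures were drawn with matplotlib 3.10.9.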

Additional observations from a re-analysis of the deposited data

How the results depend on the processing

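No paired analysis was made, because the tables hold no values for single libraries. Each clone had 1 library. Values are given in the order knockdown, knockout and mix. Of 42 values under alternative settings, 23 stayed within the interval of the main value or, for counts and ratios, within 1.5 times of it, and 19 did not. With at least 61 CpGs in place of 41, which leaves fewer regions, the tables held 1899, 225 and 837 CpG-rich promoter regions, of which 13.7%, 1.61% and 6.02% of the reachable ones were listed. The share that held a TSS was then 59.0%, 60.4% and 60.9%, and the regions common to the single comparisons made up 4.63% of those of the knockdown comparison. With the 5′ ends of genes alone, the share listed was 14.3% in the knockdown comparison and 6.24% in the mix, and the share that held a TSS was 41.8%, 37.7% and 41.6%, since fewer TSSs were counted. With a window of 1 kb, 14.4% were listed in the knockdown comparison. Apart from the lower number of regions or TSSs that these settings leave by construction, the cause was not tested. In every setting the share listed was lower in the knockout comparison than in the other tables. Fragments up to 300 bp and no requirement of reachability moved no share of CpG-rich promoter regions out of its interval, but they changed the shares of the regions these are compared with. Relative to all autosomal regions, the shares at CpG-rich promoters were 1.20, 0.357 and 1.27 as reported, 1.30, 0.387 and 1.39 with fragments up to 300 bp and 8.61, 2.51 and 9.22 without the requirement, so the knockout comparison passed from below 1 to above it. The ratios under these settings, though not those as reported, were added after seeing the data. As the tables list regions past thresholds without read numbers, neither a coverage minimum nor the depth could be varied.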
